A study of Mus musculus with 8 samples.

Results

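Loops with no promoter at either end made up 55243 of the 249200 distinct chromatin loops found in the 4 Hi-ChIP loop lists. They were the loops whose anchor midpoints lay 20 kb to 1 Mb apart and whose anchors both lay more than 2 kb from every transcription start of the GENCODE M21 annotation. The rule used positions alone, and the number of such loops in each list was not part of it. With FOXA1 they numbered 29041 in liver mets and 22886 in tumor, and with HNF4G 15980 and 14070. The 4 groups combined a factor, FOXA1 or HNF4G, with a cell line: the one derived from a KPC mouse primary pancreatic tumor or the one derived from the matched liver metastasis (liver mets). All samples were mouse pancreatic cancer cells, labelled WT for genotype and Untreated, grown in DMEM with 10% FBS. KPC mice are an engineered model of pancreatic cancer, so both lines are cancer lines despite the WT label. The series held 8 samples, 2 replicates in each of the 4 groups, but each group had 1 loop list, so no spread between replicates could be had and no test between groups was run. Each context was 1 cell line, so a difference between lines cannot be told apart from a difference between primary and metastatic cells.

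Hi-ChIP joins proximity ligation with immunoprecipitation, so that contacts between distant fragments are read where a chosen protein is bound. Enhancers are distal regulatory sequences that can contact promoters over long distances, and they can also contact each other, which gives loops without a promoter at either end. FOXA1 is a forkhead pioneer factor that can bind its motif in closed chromatin, and HNF4G is a nuclear receptor of the HNF4 family. Both are known from endodermal tissues such as liver, gut and pancreas. A loop's gene is given below as the protein-coding gene with the start nearest to an anchor, which describes position and does not show that the loop acts on that gene.

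The anchors that carried the most promoter-free loops are shown first, because they held the most distal contacts. The 300 bases of each anchor with the most forkhead (TGTTTAC) and HNF4 (CAAAGTCCA) matches are printed from GRCm38.p6, plus strand, with matches on either strand in capitals.
Anchor 1, chr8:126847734-126848033: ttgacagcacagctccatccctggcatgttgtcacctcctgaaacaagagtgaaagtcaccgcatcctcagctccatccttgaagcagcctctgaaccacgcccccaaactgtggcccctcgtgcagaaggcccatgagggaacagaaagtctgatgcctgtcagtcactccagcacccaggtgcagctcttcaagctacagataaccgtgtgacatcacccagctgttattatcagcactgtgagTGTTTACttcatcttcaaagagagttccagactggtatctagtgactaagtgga
Anchor 2, chr8:126661811-126662110: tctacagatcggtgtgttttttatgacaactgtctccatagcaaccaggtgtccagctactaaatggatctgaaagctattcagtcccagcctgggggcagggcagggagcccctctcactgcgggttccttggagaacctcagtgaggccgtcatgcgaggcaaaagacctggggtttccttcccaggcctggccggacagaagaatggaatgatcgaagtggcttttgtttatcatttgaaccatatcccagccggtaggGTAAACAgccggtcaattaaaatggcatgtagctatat
Anchor 4, chr19:41445902-41446201: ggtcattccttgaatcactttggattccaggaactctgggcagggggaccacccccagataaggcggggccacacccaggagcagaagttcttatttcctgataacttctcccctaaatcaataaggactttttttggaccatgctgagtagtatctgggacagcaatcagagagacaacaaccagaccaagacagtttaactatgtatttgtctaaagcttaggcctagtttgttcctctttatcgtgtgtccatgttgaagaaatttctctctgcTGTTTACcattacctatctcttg
Anchor 1 reached from 126846334 to 126854152 on chromosome 8. Its midpoint lay in an annotated exon and inside the bodies of the non-coding genes A630001O12Rik and Gm31718. Tomm20, which encodes a mitochondrial import receptor, had the nearest protein-coding start, 91.7 kb away. With FOXA1 anchor 1 had 30 loops in liver mets and 31 in tumor, with HNF4G 27 and 26, and it had 41 different partner anchors. Its 7819 bases held 1 forkhead match, 0 HNF4 matches and 6 AP-1 matches (TGANTCA, a palindrome counted once per site). Anchor 2 reached from 126659411 to 126668466 on chromosome 8, was intergenic and lay 65.4 kb from Irf2bp2, which encodes a transcriptional co-repressor that binds IRF2. It had 36, 25, 28 and 23 loops in the same order (FOXA1 liver mets and tumor, then HNF4G liver mets and tumor), 39 partners, 2 forkhead matches and 7 AP-1 matches. Anchor 3, from 126823641 to 126830882 on chromosome 8, held 0 forkhead and 0 HNF4 matches, so no stretch of it is printed, and it had 30, 22, 20 and 20 loops. Anchor 4 reached from 41444202 to 41456112 on chromosome 19, was intergenic and lay 26.5 kb from Lcor, which encodes a ligand-dependent nuclear receptor co-repressor. It had 24, 28, 22 and 15 loops, 3 forkhead matches and 6 AP-1 matches. The loop counts of the 2 lines had overlapping intervals at each of the 4 (liver mets over tumor from 0.857 to 1.44 for FOXA1 and from 1.00 to 1.47 for HNF4G, every 95% interval including 1).

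Promoter-free loops were more numerous in liver mets than in tumor with both factors. Liver mets had 1.27 times as many with FOXA1 (95% interval 1.25 to 1.29) and 1.14 times as many with HNF4G (1.11 to 1.16), and the FOXA1 ratio was 1.12 times the HNF4G ratio (1.09 to 1.15). Intervals of ratios of counts are exact intervals given the sum of the 2 counts. They cover counting error only, ignore that 1 anchor can serve many loops, and hold no variation between cultures. Sequencing depth is unknown, and its part in the ratios was not tested. The ratio fell with the number of promoter anchors. With FOXA1 it was 1.27 without a promoter, 1.21 (1.19 to 1.22) with 1 promoter anchor and 1.14 (1.12 to 1.16) with 2. With HNF4G it was 1.14, 1.02 (1.00 to 1.04) and 0.932 (0.913 to 0.951), so that promoter-to-promoter loops were fewer in liver mets while promoter-free loops were more.

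Promoter-free loops accordingly took a larger share of the liver mets lists. They made up 28.8% (Wilson 95% interval 28.5 to 29.1) of the loops of 20 kb to 1 Mb in FOXA1 liver mets and 27.4% (27.1 to 27.7) in FOXA1 tumor. The shares were 26.0% (25.6 to 26.3) in HNF4G liver mets and 23.3% (22.9 to 23.6) in HNF4G tumor. The difference between lines was 1.44 percentage points for FOXA1 (Newcombe interval 1.02 to 1.85) and 2.71 points for HNF4G (2.22 to 3.19). It was 0.762 and 1.13 points when starts within 10 kb made a promoter anchor, and 3.32 and 4.03 points among loops whose deposited value, described further on, was 2 or more. The share fell with span in every list, from 31.8% at 20 to 50 kb to 26.5% at 500 to 1000 kb in FOXA1 liver mets and from 26.6% to 20.5% in HNF4G tumor. Within the same span ranges the odds of a promoter-free loop were 1.08 times (Mantel-Haenszel, 1.06 to 1.10) as high in liver mets as in tumor for FOXA1 and 1.15 times (1.12 to 1.18) as high for HNF4G.

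**Figure D1:**
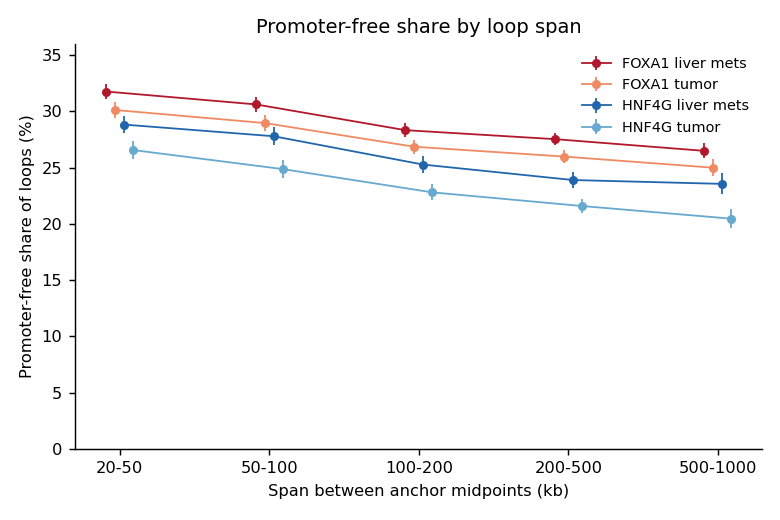
Share of loops (y axis, %) that had no promoter anchor, by the span between anchor midpoints (x axis, kb), in each of the 4 lists, with Wilson 95% intervals as bars. All 4 lines fall with span, FOXA1 liver mets from 31.8% to 26.5%, and in each range the liver mets list of a factor lies above its tumor list.

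The factors differed in the span at which the lines differed. The FOXA1 ratio rose from 1.16 (1.11 to 1.20) at 20 to 50 kb, through 1.25 (1.20 to 1.30) at 100 to 200 kb, to 1.46 (1.39 to 1.53) at 500 to 1000 kb. The HNF4G ratio fell from 1.20 (1.15 to 1.26) at 20 to 50 kb, through 1.14 (1.09 to 1.20) at 100 to 200 kb, to 1.03 (0.967 to 1.10) at 500 to 1000 kb. Loops with a promoter anchor followed the same slopes at lower ratios, from 1.07 to 1.35 for FOXA1 and from 1.08 to 0.863 for HNF4G. The median span of promoter-free loops was 151.0 kb in FOXA1 liver mets against 137.7 kb in FOXA1 tumor, and 116.6 kb in HNF4G liver mets against 127.8 kb in HNF4G tumor. Promoter-free loops were shorter than loops with a promoter anchor in all 4 lists, whose medians were 171.3, 155.5, 136.6 and 150.4 kb in that order.

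**Figure D2:**
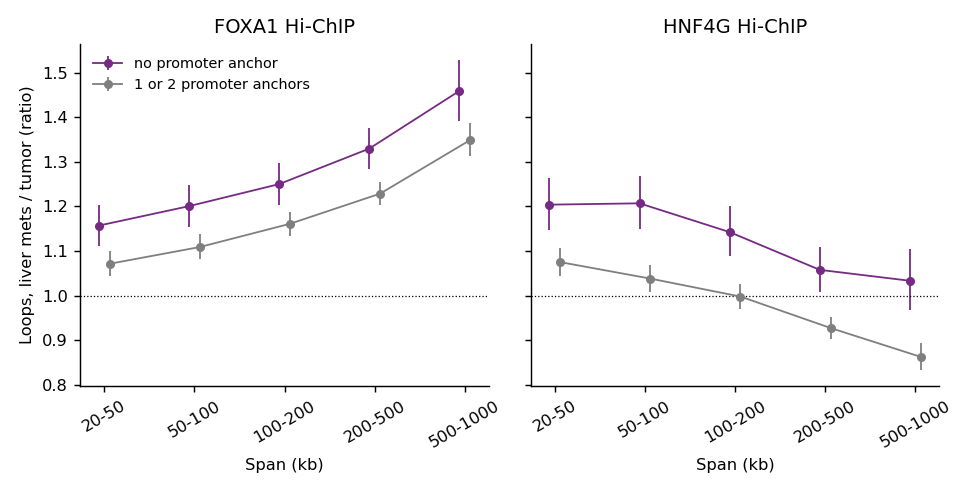
Number of loops in liver mets divided by the number in tumor (y axis, ratio) by span (x axis, kb), for FOXA1 and HNF4G Hi-ChIP, with exact 95% intervals as bars. Promoter-free loops rise to 1.46 with FOXA1 and fall to 1.03 with HNF4G, above the loops with promoter anchors in every range.

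The anchors offered 196614 distal pairs in this span range, where a pair means any 2 anchors of the 4 lists that lie on 1 chromosome and have no promoter. With FOXA1, 14.8% of them were listed in liver mets and 11.6% in tumor, and with HNF4G 8.13% and 7.16%. At 20 to 50 kb these shares were 50.3%, 43.5%, 35.1% and 29.1%, and at 500 to 1000 kb they were 5.04%, 3.45%, 2.09% and 2.02%. Of pairs of promoter anchors over the whole range, 15.4%, 13.4%, 10.4% and 11.1% were listed. A distal pair of this pool was listed nearly as often as a promoter pair in FOXA1 liver mets, and less often in HNF4G tumor (intervals 14.6 to 14.9% against 15.2 to 15.5%, and 7.04 to 7.27% against 11.0 to 11.3%). The pool came from these same lists, so a list that supplied more of its anchors can have a higher share by construction. Promoter-free loops used 14342 anchors in FOXA1 liver mets and 11113 in HNF4G tumor. The part of this in the contrast was not tested.

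Most promoter-free loops appeared in 1 list. Of the 55243, 36657 (66.4%) were in 1 list, 12187 (22.1%) in 2, 4650 (8.42%) in 3 and 1749 (3.17%) in all 4. For loops with a promoter anchor the shares were 64.9%, 21.6%, 9.13% and 4.34%. The loops in all 4 lists were short, with a median span of 55.3 kb against 248.7 kb for loops in 1 list. FOXA1 liver mets alone held 14727 loops (26.7%) and FOXA1 tumor alone 10422 (18.9%), while HNF4G liver mets alone held 6069 (11.0%) and HNF4G tumor alone 5439 (9.85%). Of loops with a promoter anchor, 23.3%, 17.9%, 11.4% and 12.3% were in these lists alone. Loops in both liver mets lists and in neither tumor list numbered 2451 (4.44%). Those in both tumor lists and in neither liver mets list numbered 1274 (2.31%). For loops with a promoter anchor these shares were 3.75% and 2.88%. A longer list can hold more of such loops, and the part of list length was not tested.

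How much the lists of a factor shared depended on the matching rule. With identical anchor pairs the FOXA1 lists had 9059 in common, which was 31.2% of the liver mets list and 39.6% of the tumor list. The HNF4G lists had 4048 in common, which was 25.3% of liver mets and 28.8% of tumor. With anchors widened by 5 kb on each side, 57.9% of the FOXA1 tumor list and 47.3% of the HNF4G tumor list were also in liver mets. With HNF4G, loops with a promoter anchor were shared more often, at 31.6% (31.2 to 32.0) of liver mets and 31.0% (30.6 to 31.4) of tumor, and these intervals lay above those of the promoter-free loops (24.7 to 26.0 and 28.0 to 29.5). With FOXA1 the liver mets list went the same way, with 31.2% (30.7 to 31.7) shared without and 33.1% (32.8 to 33.5) with a promoter, while in the tumor list the shares were 39.6% (39.0 to 40.2) and 39.2% (38.8 to 39.6). Sharing dropped with span. Of FOXA1 tumor loops, 61.3% were also in liver mets at 20 to 50 kb and 13% at 500 to 1000 kb, and of HNF4G tumor loops 48.8% and 6.63%.

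The value given for each loop separated the FOXA1 lists further. The value was deposited without a name and is taken here as the −log10 of an adjusted p, with a ceiling of 20. The lists have different runs of tied values, so a value need not mark the same evidence in each. A value of 2 or more also depended on span. With FOXA1, 2.73% of liver mets and 1.24% of tumor promoter-free loops had it at 20 to 50 kb. At 50 to 100 kb the shares were 1.38% and 1.10%, and at 100 to 200 kb 16.3% and 15.9%. They were 16.5% and 12.3% at 200 to 500 kb and 8.25% and 5.26% at 500 to 1000 kb. The part of span in the ratios by value was not tested. Promoter-free loops with a value of 2 or more numbered 2856 in FOXA1 liver mets and 1765 in FOXA1 tumor, a ratio of 1.62 (1.52 to 1.72). At 4 or more they numbered 713 and 331, a ratio of 2.15 (1.89 to 2.46), and at the ceiling 54 and 6, a ratio of 9.0 (3.88 to 25.6). The corresponding ratios of loops with a promoter anchor were 1.36, 1.66 (1.55 to 1.79) and 2.70 (2.05 to 3.58). With HNF4G, promoter-free loops numbered 1060 against 841 at 2 or more (1.26, 1.15 to 1.38), 190 against 147 at 4 or more (1.29, 1.04 to 1.61), and 4 against 8 at the ceiling (0.50, 0.110 to 1.87). The 54 loops at the ceiling in FOXA1 liver mets lay on 12 chromosomes in 27 windows of 1 Mb, of which 1 window on chromosome 8, from 126000001, held 14. Without that window the counts were 40 and 3. Of the 54, 48 were also in the FOXA1 tumor list, so most were listed in both lines and differed in value.

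The loops with the highest summed value among those in all 4 lists were led by the pair of anchor 2 and anchor 1, which spans 186.3 kb with no protein-coding start between. Its value was at the ceiling of 20 in all 4 lists. The next joined chr16:30050328-30061409, an intergenic anchor 2.98 kb from Hes1, which encodes a repressor downstream of Notch, to chr16:30186607-30190177, 77.3 kb from Cpn2. With FOXA1 its value was 20 in liver mets and 5.51 in tumor, and with HNF4G 20 and 10.6. Another anchor beside Irf2bp2, chr8:126612432-126616852, made the following loop with anchor 1, with values of 20, 12.3, 3.36 and 20. Of these loops only the first stood at the ceiling in every list.

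Promoter-free anchors were spread between gene bodies and intergenic sequence. The loops used 15953 anchors, and 7451 (46.7%) had an intergenic midpoint, 6808 (42.7%) lay in an intron of a protein-coding gene, 1056 (6.62%) in an intron of another gene and 638 (4.0%) in an exon. Intergenic sequence makes up 53.9% of the genome by the same annotation, and exons 4.81%. The anchors lay a median of 12 kb from the nearest start of any gene (quartiles 5.77 and 25.2 kb) and 21.4 kb from the nearest protein-coding start. Of the anchors, 3280 (20.6%) lay 2 to 5 kb from a start and so just outside the promoter rule, and 360 (2.26%) lay over 100 kb from any start, the farthest 361.4 kb. A median anchor was 2241 bases wide, against 2479 for promoter anchors.

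At the level of loops, 14670 (26.6%) had both anchors in intergenic sequence, 24171 (43.8%) had 1 intergenic anchor and 16402 (29.7%) had both in genes. In 5934 (10.7%) both anchors lay in the body of the same protein-coding gene. This includes Gm20388, a predicted model of 4435 kb on chromosome 8 that spans many other genes, and without it the count was 5635 (10.2%). The gene bodies with the most loops after Gm20388 were those of Magi1, Gse1, Mecom and Pde4d. Magi1, which encodes a scaffold protein of cell junctions and is 608.5 kb long, held 83 and 59 loops in liver mets and tumor with FOXA1, and 55 and 38 with HNF4G. Gse1, which lies inside Gm20388, held 46 and 46 with FOXA1 and 32 and 45 with HNF4G. Mecom, which encodes a zinc finger regulator, held 46, 39, 29 and 28 in that order of lists, and Pde4d, which encodes a cAMP phosphodiesterase, held 58, 35, 10 and 19. These genes were named after their counts were seen. With HNF4G the ratio of loops inside 1 gene was 1.28 (1.20 to 1.37) and that of loops with both anchors intergenic was 1.12 (1.07 to 1.17), and the share of loops inside 1 gene was 1.60 points (0.830 to 2.36) higher in liver mets. With FOXA1 the ratios were 1.25 (1.19 to 1.32) and 1.27 (1.23 to 1.32). Loops inside a gene were also shorter: they made up 29.0% of loops of 20 to 50 kb and 0.973% of those of 500 to 1000 kb.

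Many promoter-free loops passed over genes. In 14510 (26.3%) no protein-coding start lay between the anchors, and in 16238 (29.4%) both anchors had the same nearest protein-coding start. A loop of 20 to 50 kb spanned a median of 0 protein-coding starts, a loop of 100 to 200 kb 4 and a loop of 500 to 1000 kb 27.

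Distal contacts were dense in a few places. The 10 windows of 500 kb with the most distinct promoter-free loops held 2114 loops, 3.83% of all, in 0.190% of the genome. They took 4.45% of the liver mets list and 4.39% of the tumor list with FOXA1, and 5.05% and 5.25% with HNF4G. The windows were chosen by the number of distinct loops over the 4 lists, so their density is a description. The ratio between lines was not used directly. FOXA1 liver mets was the longest list, so a window rich in its loops was more likely to be chosen. The ratios in these windows are therefore a description too. The densest, chr8:126400001-126900000, held the starts of Irf2bp2, Tarbp1 and Coa6, a cytochrome c oxidase assembly factor. It held 390 distinct loops among 34 distal anchors, and 74.9% of the 521 distal pairs of at least 20 kb were in a list. Over the whole genome, 8163 of 10406 distal pairs at 20 to 50 kb were in a list, and 9535 of 14629 at 50 to 100 kb. At 100 to 200 kb they were 11785 of 24511, and at 200 to 500 kb 16096 of 61147. In the 10 windows the share went from 42.1% to 74.9%, and it was not adjusted for span. With FOXA1 the densest window had 283 promoter-free loops in liver mets and 187 in tumor, and with HNF4G 173 and 176. FOXA1 liver mets stood above the other lists there, while the HNF4G lists were nearly equal (FOXA1 ratio 1.51, 1.25 to 1.83; HNF4G ratio 0.983, 0.792 to 1.22).

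The second window, chr7:144900001-145400000, held Ccnd1, which encodes cyclin D1, and Tpcn2, which encodes a lysosomal cation channel. It had 145 and 106 loops in liver mets and tumor with FOXA1 and 77 and 64 with HNF4G, and 53.0% of its distal pairs were in a list. The third, chr11:112800001-113300000, held no protein-coding start and lay beside Sox9, which encodes a transcription factor of pancreatic ducts. In it 29 of 31 anchors were distal, it had 147, 101, 87 and 82 promoter-free loops, and 62.9% of its distal pairs were listed. Only 32 distinct loops with a promoter anchor lay inside it, against 234 without. The window with Trib1, a pseudokinase gene, chr15:59400001-59900000, had 135, 117, 83 and 72 loops.

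The other windows held 158 to 183 distinct loops each. That with Ptpn1, a tyrosine phosphatase gene, had 87, 82, 67 and 65 in the same order of lists. The window with Phlda1, a gene for a pleckstrin homology-like protein, had 128, 91, 59 and 61. The window with Lcor had 95, 97, 69 and 58. Here 5.64% of loops, counted over the lists, had both anchors intergenic, against 85.1% in the window with Zfp217, a zinc finger gene, and Cyp24a1, which encodes the enzyme that degrades active vitamin D. The Zfp217 window had 74, 75, 65 and 55 loops. The window with Cdkn1b, which encodes the cell cycle inhibitor p27, and Gprc5a, an orphan receptor gene, had 103, 65, 61 and 49, and it also held 300 distinct loops with a promoter. The window with Ywhaz, which encodes a 14-3-3 protein, and Zfp706 had 94, 83, 66 and 57.

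Of the 10 windows, 2 had at least 1.5-fold more FOXA1 loops in liver mets, those of Irf2bp2 and of Cdkn1b (1.58, 1.15 to 2.20), where 19.5% of the 457 windows with 20 or more loops did. None had 1.5-fold more FOXA1 loops in tumor, where 1.75% of windows did. None of the 10 passed this fold with HNF4G in either direction, where 20.3% of 271 windows passed it in liver mets and 4.8% in tumor. A count of 2 of 10 is near the share of all windows, and with windows of 250 kb neither place passed (1.41, 1.03 to 1.94, and 1.39, 0.854 to 2.28). With 1 list per group, passing 1.5-fold is a description of these lists.

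**Figure D3:**
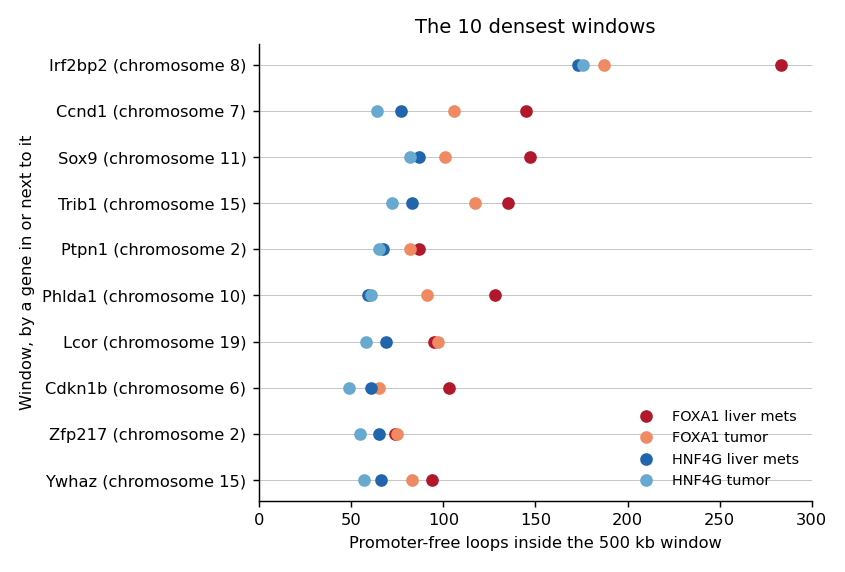
Number of promoter-free loops with both anchors inside each of the 10 densest 500 kb windows (x axis), 1 row per window named by a gene in or beside it, and 1 point per list. FOXA1 liver mets reaches 283 in the Irf2bp2 window and stands apart from the other lists there, where the HNF4G lists, at 173 and 176, lie together.

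Over the whole genome, a distal anchor with any promoter-free loop had a median of 3 in each FOXA1 list and 2 in each HNF4G list, and the highest numbers were 36, 31, 28 and 26. The 5% of anchors with the most loops carried 16.5% to 17.5% of all loop ends in each list. Wider anchors had somewhat more loops (Spearman correlation across 11113 to 14342 anchors of 1 list, 0.214 to 0.268, where all anchors share the list's library and depth). Among the 10 anchors with the most loops, 5 lay in the window of Irf2bp2 on chromosome 8. The others lay 26.5 kb from Lcor, in introns of Magi1 and of Sh3bp4, 2.98 kb from Hes1, and 2.85 kb from Lncpint. The anchor near Lncpint, a long non-coding RNA gene, had 35 loops in FOXA1 liver mets and 17 in FOXA1 tumor, and 17 and 15 with HNF4G. It was the only one of the 10 whose FOXA1 interval left out 1 (2.06, 1.12 to 3.92), and all 10 HNF4G intervals included 1.

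By nearest protein-coding gene, the loops fell to 6248 genes with a median of 9 loop entries summed over the lists, and 225 genes had 100 or more. The genes with the most, named after their counts were seen, were Irf2bp2 with 745, Tomm20 with 530, Magi1 with 501, Sox9 with 489 and Trib1 with 480. Hes1 with 434, Sh3bp4 with 412 and Myc with 393 followed. Myc, the gene of a growth-promoting transcription factor, had 175 in liver mets and 99 in tumor with FOXA1, and 71 and 48 with HNF4G. Its FOXA1 ratio was 1.77 (1.37 to 2.29), against 1.57 (1.25 to 1.98) at Tomm20 and 1.52 (1.25 to 1.85) at Irf2bp2. The ratio was 1.40 at Sox9, 1.38 at Magi1, 1.29 at Hes1, 1.28 at Sh3bp4 and 1.08 at Trib1. Of all genes with 20 or more FOXA1 loops, 31.1% had at least 1.5-fold more in liver mets. The HNF4G ratio of Myc was 1.48 (1.01 to 2.18), under that fold.

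The change between lines at single genes was tilted to liver mets. Of 1205 genes with 20 or more FOXA1 loops over the 2 lines, 375 (31.1%) had at least 1.5-fold more in liver mets and 31 (2.57%) in tumor. Of 605 genes with 20 or more HNF4G loops, 114 (18.8%) had 1.5-fold more in liver mets and 39 (6.45%) in tumor. The genes at the ends of each ranking were picked by this ratio, so their values are a description.

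With FOXA1 the highest ratio was at Ehf, which encodes an epithelial ETS factor, where liver mets had 33 loops and tumor 9 (3.67, 1.72 to 8.71). The HNF4G loops near Ehf numbered 17 and 7. Krt39, a keratin gene, had 18 and 5 FOXA1 loops. Ctbp2, a co-repressor gene, had 23 and 7, and Spsb1, a gene for a ubiquitin ligase adaptor, had 17 and 5. Aqp1, which encodes a water channel, had 21 and 7. Near Spsb1 the HNF4G loops went the other way in number, with 2 in liver mets and 8 in tumor. The lowest FOXA1 ratios were near Kif13b, a kinesin gene, and Stk10, a kinase gene, each with 8 and 15 loops. They were followed by Cpne5, Fmnl1, a formin gene, and Fos, an AP-1 gene, each with 7 and 13, and the intervals of all 5 included 1.

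With HNF4G, and with 1 added to each count, the highest ratio was at Kank1 (3.71), a gene for an ankyrin repeat protein of the cytoskeleton, where liver mets had 25 loops and tumor 6 (4.17, 1.67 to 12.4), and where FOXA1 had 30 and 28. Tiam2, a gene for an activator of Rac, had 17 and 4 (4.25, or 3.60 with 1 added), and Inpp5a, an inositol phosphatase gene, had 20 and 5. Stn1, which encodes a telomere protein, had 19 and 6, and the predicted gene Gm12728 had 21 and 7. The lowest ratios were at Mturn with 5 and 15, and at Cbx8, which encodes a Polycomb protein, with 16 and 43 (0.372, 0.196 to 0.674). Near Cbx8 FOXA1 had 24 and 15 loops. Enpp2, which encodes autotaxin, had 7 and 19 HNF4G loops. Bcor, a co-repressor gene on chromosome X, had 6 and 15, and Foxp4, a forkhead gene, had 6 and 14.

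**Figure D4:**
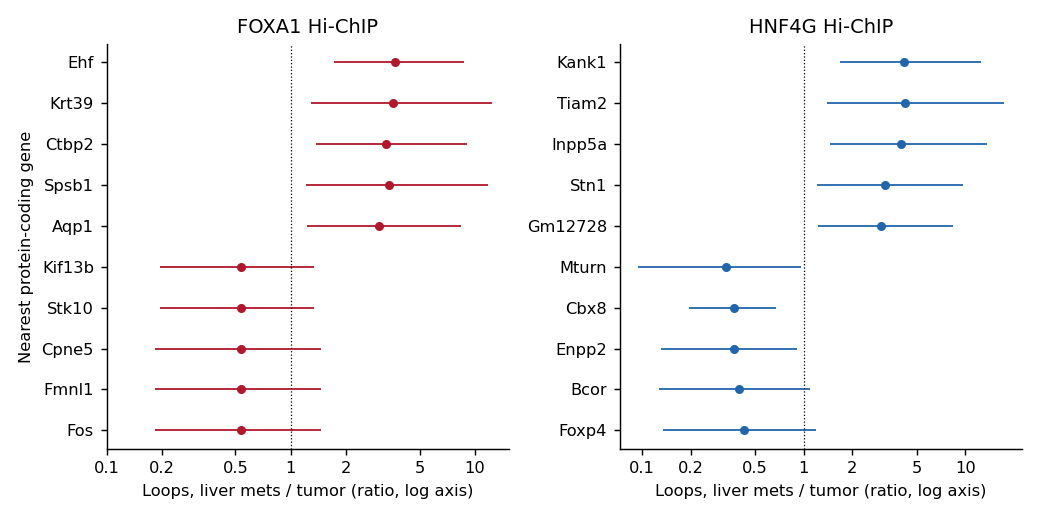
Ratio of promoter-free loops in liver mets to tumor (x axis, log scale) near the 5 genes with the highest and the 5 with the lowest ratio for each factor (y axis), with exact 95% intervals as bars. The 5 highest intervals of each factor lie above 1, and all 5 lowest FOXA1 intervals cross 1.

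Genes of foregut, pancreatic and some other transcription factors were then read from a list. This list and those below were chosen with earlier results of these data known, so their counts are a description. Of the 24 genes, 21 had a promoter-free loop near them, with a median of 51 loops each, against 9 for all genes with a loop. The medians of the other lists, 47.5, 34.5 and 14, also lay above 9. With FOXA1, 13 had 20 or more loops and 6 of these had 1.5-fold more in liver mets (31.1% of all genes did), and none had 1.5-fold more in tumor. With HNF4G, 11 had 20 or more, of which 2 passed in liver mets and none in tumor, where 18.8% and 6.45% of all genes did, so the count is near that of all genes. Sox9 had 170 and 121 loops in liver mets and tumor with FOXA1, and 110 and 88 with HNF4G, and the next genes are given in this order. Runx1, which encodes a Runt-domain factor, had 71, 45, 31 and 38, and Klf4, which encodes a zinc finger factor of epithelia, had 68, 39, 30 and 23. Tead1, which encodes a DNA-binding partner of YAP, had 57, 39, 35 and 28. Foxa1 itself had few, with 6, 4, 1 and 0, and Hnf4g had 3, 1, 0 and 0.

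Of 10 AP-1 genes, 7 had a loop near them, with a median of 14 loops. The most were at Atf3 with 11, 11, 4 and 12 and at Fos with 7, 13, 10 and 7, followed by Fosb with 4, 5, 6 and 5 and Jun with 7, 2, 3 and 2. With FOXA1, 2 of these had 20 or more loops, 0 passed in liver mets and 1, Fos, in tumor, where 31.1% and 2.57% of all genes did. No AP-1 gene had 20 or more HNF4G loops. Of 16 genes of the mesenchymal transition, 12 had a loop, with a median of 34.5 among these 12. Tgfb1, Tgfbr1, Twist1 and Vim had none. Summed over the lists, Cdh2 and Snai2 had 2 each, Zeb2 had 7 and Zeb1 had 8. Smad7, which encodes an inhibitor of TGF-beta signalling, had 71, 51, 38 and 38, Itgb6, an integrin gene, had 57, 44, 18 and 16, Cdh1, which encodes E-cadherin, had 31, 21, 16 and 13, and Smad3 had 24, 16, 13 and 8. Of the 6 with 20 or more FOXA1 loops 1 passed in liver mets (31.1% of all genes did), as did 1 of 4 with HNF4G (18.8% of all genes), and none passed in tumor.

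Of 18 receptor and ligand genes, 16 had a loop, with a median of 47.5. Wnt7b, a Wnt ligand gene, had 75, 71, 53 and 47, Met, which encodes the HGF receptor, had 46, 36, 20 and 15, Tgfa, an EGF receptor ligand gene, had 26, 29, 22 and 13, and Jag1, a Notch ligand gene, had 36, 21, 8 and 6. With FOXA1, 3 of 11 passed in liver mets and with HNF4G 1 of 4, near the 31.1% and 18.8% of all genes, with none in tumor.

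The higher number in liver mets held across chromosomes. The FOXA1 ratio was above 1 on all 19 autosomes, from 1.17 to 1.42. The HNF4G ratio was above 1 on 18 of 19, from 0.996 to 1.22, the lowest on chromosome 1. Chromosome X had few promoter-free loops and differed by factor, with 91 in liver mets and 42 in tumor for FOXA1, and 20 and 38 for HNF4G. The FOXA1 ratio there was 2.17 (1.49 to 3.20) and the HNF4G ratio 0.526 (0.290 to 0.928).

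Sequence was read at all anchors, as matches per kb over both strands. The anchors of promoter-free loops had 46.2% G and C, promoter anchors 51.3% and the genome 41.8%. CpG occurred 11.6 times per kb in promoter-free anchors and 30.7 times in promoter anchors. AP-1 matches occurred 0.529 times per kb (Poisson interval 0.522 to 0.536), which was 1.67 times the genome-wide 0.317, against 0.327 per kb in promoter anchors. Of promoter-free anchors, 71.2% held an AP-1 match, and of promoter anchors 54.5%. Forkhead matches occurred 0.203 times per kb (0.199 to 0.207) in promoter-free anchors, 0.151 in promoter anchors and 0.157 in the genome, and 39.2% of promoter-free anchors held one. HNF4 matches occurred 0.0179 times per kb (0.0166 to 0.0192), against 0.0157 (0.0145 to 0.0170) in promoter anchors and 0.0133 in the genome, and 4.43% of promoter-free anchors held one. TEAD matches (GGAATGT) occurred 0.169 times per kb against 0.142 in the genome. GATA matches (AGATAAG) were at the genome level, 0.154 against 0.156. The part of base composition in these densities was not tested.

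**Figure D5:**
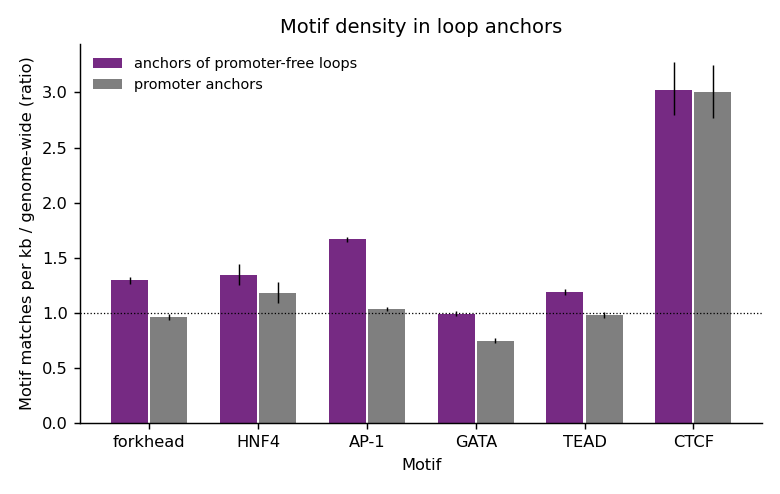
Motif matches per kb in anchors of promoter-free loops and in promoter anchors, divided by the genome-wide density (y axis, ratio, dotted line at 1), for 6 motifs (x axis), with Poisson 95% intervals as bars. AP-1 stands at 1.67 in promoter-free anchors and 1.03 in promoter anchors, forkhead at 1.29 and 0.962, and CTCF near 3 in both.

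Several motifs, forkhead among them, were denser in anchors used more by FOXA1. Of the anchors with 10 or more loops, those at the upper quartile of the FOXA1 share of loops (70.0% or more) had 0.205 forkhead matches per kb (0.192 to 0.218) and those at the lower quartile (54.5% or less) had 0.168 (0.156 to 0.180). AP-1 matches were likewise 0.557 per kb (0.536 to 0.579) in the first and 0.461 (0.441 to 0.481) in the second, and GATA matches 0.161 (0.150 to 0.173) and 0.130 (0.119 to 0.141). The intervals of HNF4 matches overlapped, at 0.0162 per kb (0.0128 to 0.0203) and 0.0188 (0.0150 to 0.0233). Anchors with 20 or more loops had 0.176 forkhead matches per kb (0.166 to 0.186), fewer than the 0.241 (0.227 to 0.255) of anchors with 1 or 2 loops. The median widths of these last sets were 3051 and 2078 bases. In each list 46.9% to 48.5% of promoter-free loops had a forkhead match at 1 anchor and 16.7% to 17.1% at both, and 0.231% to 0.350% had an HNF4 match at both.

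CTCF consensus matches, which mark possible sites of the insulator protein CTCF, occurred 0.0151 times per kb in promoter-free anchors (0.0139 to 0.0163), 0.0149 in promoter anchors and 0.00497 in the genome. Only 3.67% of promoter-free anchors held one, and 132 of the 55243 loops (0.239%) had matches on a single strand at each anchor, so that an orientation could be read. Of these 46 (34.8%, 27.3 to 43.3) pointed towards each other, 57 (43.2%) in the same direction and 29 (22.0%, 15.8 to 29.8) away from each other. Among loops with a promoter anchor 144 of 523 (27.5%, 23.9 to 31.5) pointed towards each other. These intervals overlap, and the difference between these shares was not tested.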

How the data were processed

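The loop lists were made by the authors with HiC-Pro 3.1.0, named in the submitters' processing notes, on mm10 with DpnII fragments and duplicates removed, followed by hichipper. How the 2 replicates of a group were joined and the minimum of read pairs per loop were not given in the sources used here. The deposited value per loop had no name and was taken as −log10 of an adjusted p from its ties and its ceiling. The deposited display score followed from the value rounded down in all loops and was not used further.

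Anchors were placed on GRCm38 with GENCODE M21, and coordinates count from 1. A loop counted as shared by lists that gave the identical anchor pair. Ratios had exact intervals, shares Wilson, differences Newcombe and motif counts Poisson intervals. Odds ratios of a promoter-free loop were Mantel-Haenszel with Robins-Breslow-Greenland intervals, and odds ratios of sharing had Woolf intervals. All intervals were at 95% and for counting error only. Read depth and read pairs per loop are unknown here. A loop was counted once for each protein-coding gene nearest to one of its anchors. Windows of 500 kb moved in steps of 100 kb. A 1.5-fold difference needed 20 or more loops over both lines. Named were the 10 densest windows, the 10 anchors with the most loops, the 5 highest and 5 lowest genes per factor by ratio with 1 added to each count, the 4 genes of each list with the most loops, and the 3 loops with the highest summed value in all lists. The members and gene lists were chosen with earlier results of these data known. Alternatives changed the promoter distance, the starts, the span, the minimum value, the matching of anchors, the chromosomes and the window. Functions were tested on simulated data. Python 3.11.15, pandas 2.3.3, scipy 1.17.1 and matplotlib 3.10.9 were used.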

Additional observations from a re-analysis of the deposited data

Results flagged for a closer look

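Chromosome X moved in opposite directions with the 2 factors. The ratio of promoter-free loops in liver mets to tumor was 2.17 for FOXA1 and 0.526 for HNF4G, with counting intervals on opposite sides of 1, among 20 chromosomes compared. The counts were 91 against 42 and 20 against 38, and with 1 list per group this difference was not tested. Loops with a promoter anchor on chromosome X had ratios of 1.40 (1.05 to 1.86) for FOXA1 and 1.15 (0.801 to 1.66) for HNF4G. The megabases from 11000001 and from 12000001, the most used on chromosome X, had 11 and 12 FOXA1 loops in liver mets against 6 and 7 in tumor, and 3 and 3 HNF4G loops against 9 and 6.

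The median span of promoter-free loops also moved in opposite directions. It was 13.4 kb longer in liver mets with FOXA1 and differed by -11.1 kb with HNF4G. The difference was not tested.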

How the results depend on the processing

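No paired analysis was possible because each group's list covers both replicates and no column carries a replicate. No alternative run turned the direction of the ratios, share differences or odds ratios; the shared parts of a list have no direction to turn. The values that moved past the counting interval follow. With promoter anchors within 10 kb, the ratio was 1.30 for FOXA1 and 1.16 for HNF4G, the share difference 0.762 and 1.13 points, and the FOXA1 tumor share also in liver mets 40.7%. With starts of protein-coding genes, the HNF4G share difference was 3.22 points, and the shared part of the tumor list 40.4% for FOXA1 and 29.6% for HNF4G. With spans of 50 to 500 kb the shared parts were 38.3% and 26.4%, and with anchors widened by 5 kb 57.9% and 47.3%. With a value of 2 or more, the ratios were 1.62 and 1.26 and the ratio of ratios 1.28, the share differences 3.32 and 4.03 points, the odds ratios 1.19 and 1.30, and the shared parts 24.6% and 16.5%. With windows of 250 kb, the number of the 10 densest with 1.5-fold more loops in liver mets went from 2 to 0 for FOXA1 and from 0 to 1 for HNF4G. Chosen after seeing the data, leaving out the 10 densest windows gave ratios of 1.27 and 1.14, and leaving out Gm20388 gave an HNF4G ratio inside 1 gene of 1.29. Unknown depth limits every comparison of numbers between lists.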
